A study of Mus musculus with 4 samples.

Results

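The regions described here are stretches of the clone 4L.1.4 genome that carried the histone mark H4K20me1 in the deposited list. They shared not a single base pair with any H4K20me1 region of the other culture, the MSC21 population. They were chosen by position alone: a region of the clone list entered the set when its overlap with every region of the population list was 0 bp, on all chromosomes other than 11 and 13. Of the 10535 clone regions on the 18 chromosomes used, 1607 met the rule (15.3%, exact Clopper-Pearson 95% interval 14.6 to 15.95%). The remaining 8928 clone regions shared sequence with the population and are called matched below, and the 1607 are called unmatched.

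Both cultures were mesenchymal stem cells from the bone marrow of C57BL/6 mice, grown to confluence in stem cell medium. Chromatin immunoprecipitation and sequencing (ChIP-seq) was done with an antibody against H4K20me1 and, as a control, with non-immune rabbit serum, which gave 4 libraries, 1 for each culture and antibody. The 2 lists hold positions in the mouse build mm9 and no read count, enrichment or significance, so the depth behind a region is unknown. One clone stood for clonal cells and 1 library for each group, so no difference could be set against the spread between replicates, no test was made and no p-value is given. The intervals reflect counting error alone and treat each region as a separate observation, although regions cluster. A region missing from the population list was not called there; whether the population lacked the mark at that place cannot be read from the list.

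H4K20me1 is histone H4 carrying a single methyl group on lysine 20. It is written by the enzyme KMT5A, is carried on to higher methylation states by KMT5B and KMT5C, and its level follows the cell cycle. The mark is known to spread over the bodies of transcribed genes as broad domains and to be enriched on the inactive X chromosome. Mesenchymal stem cells of the bone marrow are stromal cells that can give rise to bone, cartilage and fat.

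The unmatched regions were narrower than the matched clone regions. Their median width was 2611 bp (quartiles 1953 and 4105.5 bp, range 1133 to 49010 bp), against 4020 bp in the matched clone regions (quartiles 2386 and 8008 bp). The unmatched median was the lower one on each of the 18 chromosomes. Regions of at least 10000 bp numbered 75 of the unmatched (4.67%) and 1715 of the matched (19.2%). Because they were narrow, the 1607 regions covered 6.00 Mb, or 9.15% of the 65.6 Mb of clone sequence on these chromosomes, a smaller share than their share of regions. A wide region meets another list more easily than a narrow one, so the rule itself favours narrow members.

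Unmatched regions made up a larger part of the narrow clone regions than of the wide ones, but the share was not highest in the narrowest class. It was 18.8% (15.4 to 22.7%) of the 467 clone regions under 1500 bp. At 1500 to 2000 bp it was 23.6% (21.5 to 25.8%), and at 2000 to 3000 bp 22.7% (20.9 to 24.5%), and the intervals of these 3 classes overlapped. In wider classes the share was lower: 16.1% (14.6 to 17.6%) at 3000 to 5000 bp and 9.45% (8.25 to 10.8%) at 5000 to 10000 bp. Clone regions of 10000 to 20000 bp had no counterpart in 4.52% of cases (3.46 to 5.79%), and those of 20000 bp or more in 3.30% (1.90 to 5.30%, 16 of 485).

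The reverse set was larger and narrower still. On the same chromosomes 16602 of 25001 population regions shared nothing with the clone (66.4%), with a median width of 1631 bp. The widest of them, however, measured 166.6 kb, against 49.0 kb for the widest unmatched clone region. Regions under 2000 bp were 60.96% of these unmatched population regions and 27.4% of the unmatched clone regions. Among matched regions the same shares were 21.5% in the population and 17.0% in the clone, so the population list had the larger narrow part there too. The plot of cumulative widths shows the unmatched clone curve between the unmatched population curve and both matched curves over most of its range.

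**Figure D1:**
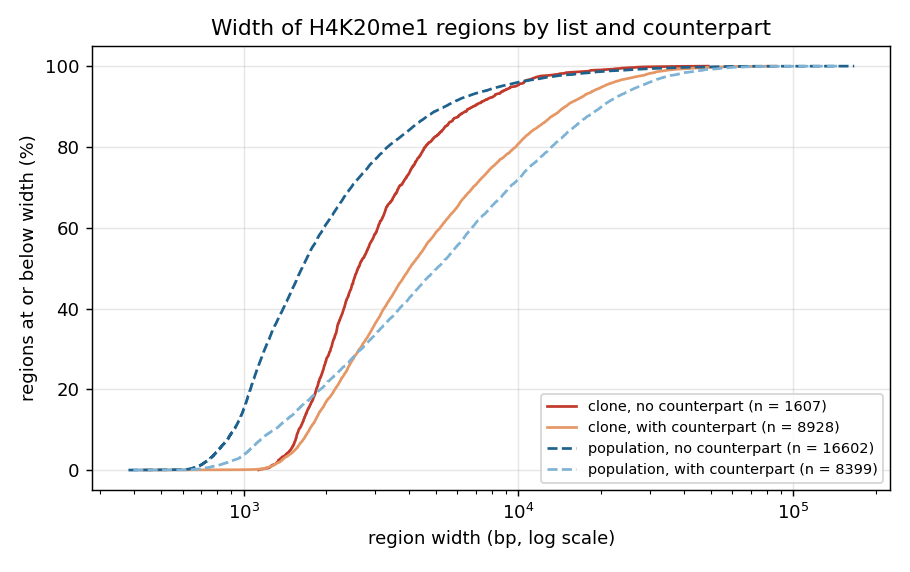
Cumulative share of regions (%) against region width (bp, log scale) for clone (solid) and population (dashed) regions with and without a counterpart in the other list, on 18 chromosomes. Clone regions without a counterpart (median 2611 bp) lie left of clone regions with one (median 4020 bp) and right of population regions without one (median 1631 bp).

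The distances of the unmatched regions to the population list ran from 1 bp to 1314 kb. The median distance to the nearest population region was 10.3 kb, measured between facing ends (quartiles 2.82 and 30.6 kb). Within 1000 bp of a population region lay 182 members (11.3%, 9.82 to 12.98%), and within 10000 bp lay 792 (49.3%, 46.8 to 51.8%). Beyond 100000 bp lay 161 (10.02%, 8.59 to 11.6%), and 27 of these were more than 500000 bp away. By construction, the median distance and the share within 10000 bp moved when near population regions also counted as counterparts. With a limit of 5000 bp they were 21756 bp and 22.6%. With regions within 10000 bp joined in each list they were 23170 bp and 26.3%. Disregarding overlaps under 10% of the clone region gave 9871 bp and 50.3%, within the intervals of the values reported. The 16602 unmatched population regions were at a median of 30.3 kb from the clone list, but that list has fewer regions, so the 2 distances cannot be compared as a measure of nearness.

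At the border of the rule, the members and non-members differed by a few base pairs. The closest member (chr17:26903693-26905837, 2145 bp) ended 1 bp from a population region, and the next 4 lay 11 to 20 bp away. The matched regions with the least overlap shared 5 bp (chr1:183116799-183132637, 15839 bp wide), 16 bp and 21 bp. A gap of at most 100 bp was found for 17 members, and an overlap of at most 100 bp for 11 matched clone regions.

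Distant members were somewhat wider than near ones. The median width was 2462 bp in the 792 members within 10000 bp of a population region, 2690 bp in the 654 between 10000 and 100000 bp away, and 3158 bp in the 161 farther away. Of those 161, 16 (9.94%) were at least 10000 bp wide and held 37.1% of the 842.2 kb that the 161 covered. Among the 792 near members 26 (3.28%) were as wide. The rule favours this order, since a wide clone region close to a population region overlaps it more easily and is then no member. How much of the difference in width follows from the rule was not tested. The scatter of width against distance shows the widths spread over more than 1 order of magnitude at most distances. The spread was smaller among the members nearest to the population list and those farthest from it.

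**Figure D2:**
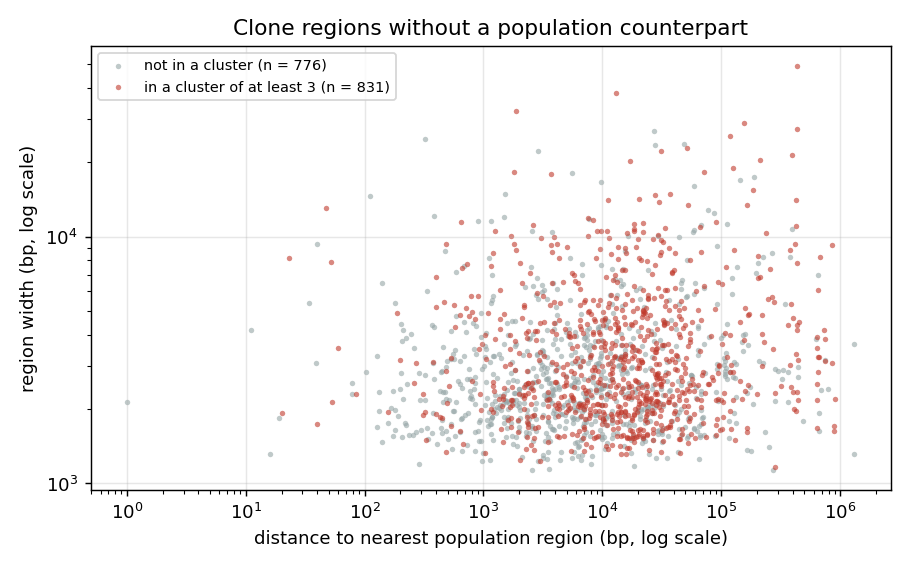
Each point is 1 of the 1607 clone regions without a counterpart, placed by its distance to the nearest population region and its width (both in bp, log scales), with members of clusters in red. Points lie most densely near the medians of 10.3 kb and 2611 bp, and the widest region (49010 bp) lies 433.4 kb from the population list.

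Seen from the population list, 559 members (34.8%) had a population region within 10000 bp on 1 side only, 233 (14.5%) had one on both sides and 815 (50.7%) on neither. For the 792 near members, the nearest population region was itself overlapped by another clone region in 510 cases (64.4%, 60.9 to 67.7%) and by none in 282 (35.6%). About 2 in 3 of the near members therefore stood beside sequence that both lists marked. In the other 282 cases the clone and the population each had a region of its own within 10000 bp, with no shared sequence at that population region. The 792 cases rested on 662 different population regions. Of all 25001 population regions on these chromosomes 66.4% were overlapped by no clone region, but those counted here were picked by lying near a clone region.

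The members lay in 892 of the 24983 gaps between consecutive population regions, and 8 more lay between the outermost population region and a chromosome end. A gap that held a member had a median length of 60.3 kb, against 2.99 kb for all gaps. Of the 16427 gaps of at most 10000 bp, 121 held a member (0.74%, 0.61 to 0.88%), whereas 122 of the 935 gaps over 500000 bp did (13.05%, 10.95 to 15.4%). Longer gaps offer more room, and no measure per base pair was made here.

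The surroundings of the members were marked in both cultures. In the 1 Mb around a member, population regions covered a median of 93.7 kb (quartiles 44.3 and 153.0 kb), against 119.8 kb around a matched clone region (75.7 and 174.8 kb). Other clone regions covered a median of 69.1 kb around members and 62.5 kb around matched regions. The quartile ranges overlapped widely for both measures. A matched region overlaps a population region by definition and a member overlaps none, so the rule fixes part of the difference in population sequence. In 27 cases (1.68%) the 1 Mb around a member held no population region at all, which the rule does not allow for a matched region.

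Unmatched regions followed each other along the clone list. Of the 1607 members, 1083 (67.4%, 65.0 to 69.7%) had another member directly before or after them in the order of the clone list, whereas 1537 of 8928 matched regions (17.2%, 16.4 to 18.01%) had a member beside them. Clone regions that lie wholly within the same gap between population regions are all members by the rule, which favours such neighbours. The list broke into 835 runs of consecutive members. A run of 1 accounted for 524 members (32.6%), runs of 5 to 9 for 412 (25.6%), and the 6 runs of 10 or more for 68 (4.23%). The longest run held 14 members on chromosome 4. After regions within 10000 bp had been joined in each list, the share next to another unmatched stretch was 34.6%.

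By distance, 831 members (51.7%, 49.2 to 54.2%) lay in 172 clusters, a cluster being at least 3 members with no more than 50000 bp between consecutive ones. Another 282 formed pairs and 494 stood alone. The clustered share of matched clone regions is not given here. Close spacing was not particular to members. Another clone region of either kind lay within 10000 bp of 78.7% of members and 74.0% of matched regions. The median gaps to the nearest other clone region were 1351 and 1516 bp. Clusters had a median of 4 members and at most 15, and 10 clusters had 10 or more. The median gap between consecutive members of a cluster was 1788 bp, and 271 of these 659 gaps (41.1%) were at most 1000 bp, the smallest being 6 bp. The members covered a median of 53.0% of a cluster's span. Joining regions within 1000 bp beforehand lowered the clustered share to 29.7%, and joining within 10000 bp to 4.48%.

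Clustered members were farther from the population list than the others. Their median distance was 15.6 kb against 6.07 kb, and 37.5% of them lay within 10000 bp of a population region against 61.9% of the 776 members outside clusters. Distance and clustering are linked, since several members need more room between population regions than 1 does. Population gaps holding 1 member had a median length of 44.0 kb, and those holding 5 or more 140.6 kb. How much of the difference in distance follows from this was not tested. Clustered members had a median width of 2849 bp against 2456 bp. In 113 of the 172 clusters (65.7%, 58.1 to 72.8%) no population region lay between the first and the last member. The median span of a cluster was 32.9 kb and the median length covered by members was 14.4 kb, each median being taken separately.

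The 5 clusters with the most covered sequence held 40 members and 400.8 kb, 6.68% of all unmatched clone sequence. None of the 5 contained a population region or a matched clone region. The largest lay on chromosome 4 (chr4:149697476-149848808) and had 14 members of 2.05 to 18.3 kb, which covered 98.3 kb of its 151.3 kb span. It was split by an unmarked interval into a block of 5 members and a block of 9. Marked population sequence began 9.11 kb beyond its last member.

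The cluster at chr15:64018922-64109031 filled the space between marked stretches of the population. Its 6 members covered 86.2 kb of 90.1 kb (95.7%), the first lay 197 bp from a population region and the last 47 bp from another. The widest of them measured 38.2 kb. Here both cultures were marked on either side, and the space between was listed for the clone alone.

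The cluster at chr15:42850515-42926297 was the opposite case. Its 5 members covered 99.4% of 75.8 kb, and the nearest population region was 156.5 kb away. The 5 pieces, of 2.30 to 28.8 kb, followed each other so closely that joining within 1000 bp turned them into a single stretch, the widest such stretch in the set.

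On chromosome 1 (chr1:64088546-64164889) 10 members covered 71.9 kb of 76.3 kb, starting 573 bp from a population region and reaching 66.0 kb away from it. The population gap that held them was 486.3 kb long, and the marked sequence of the clone ran into it from 1 end. The fifth cluster (chr4:63623225-63706726) held 5 members with 69.1 kb, all between 398.9 and 433.4 kb from the population list, and it included the widest unmatched region. The map of the 5 clusters shows these arrangements side by side.

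**Figure D3:**
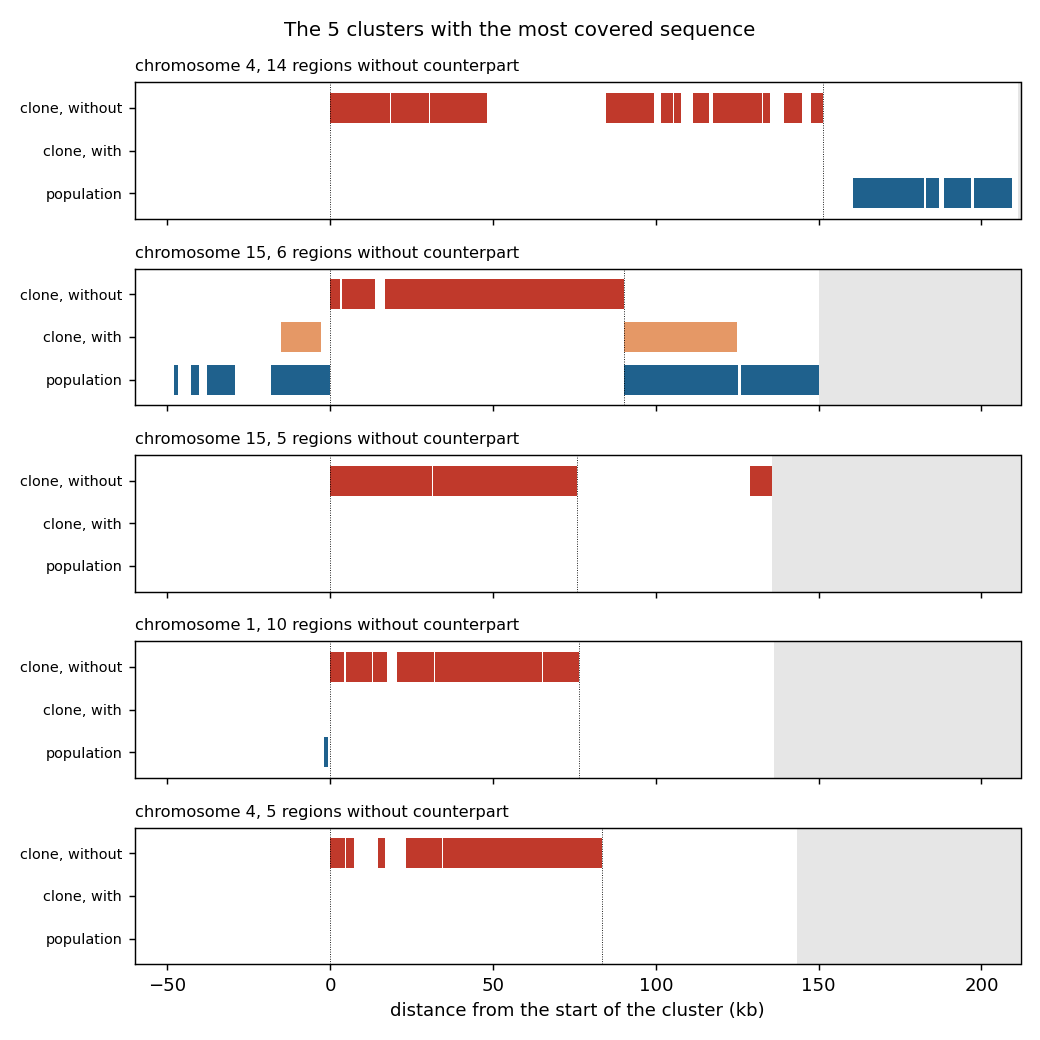
Regions of each list in and around the 5 clusters with the most covered sequence, by distance in kb from the start of the cluster, with clone regions without a counterpart in red, clone regions with one in orange and population regions in blue. Dotted lines mark the ends of each cluster, 60 kb are shown on either side and grey lies outside the window. Population regions lie after the first cluster, on both sides of the second and before the fourth. None falls in the windows of the third and the fifth.

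Clusters far from the population list were a small group: in 18 of 172 (10.5%, 6.32 to 16.0%) every member was over 100000 bp away. Besides the pair on chromosomes 15 and 4 named above, 3 clusters had the most covered sequence in kb, though not the largest covered part of their span. One had 7 members on chromosome 8 (chr8:55165994-55242086, 57.4 kb, at least 367.1 kb away). The next had 5 on chromosome 10 (chr10:99478412-99562927, 52.1 kb, at least 380.3 kb away). Another held 7 members on chromosome 17 (chr17:62962755-63024608, 44.7 kb, at least 203.0 kb away). These 3 were chosen after their values were seen. All 161 members beyond 100000 bp fell into 83 separate stretches on 17 of the 18 chromosomes, and 55 of the stretches were a single region.

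The 10 widest members measured 23.6 to 49.0 kb and together held 300.045 kb. Their distances to the population list ran from 323 bp to 437.6 kb: 4 of the 10 were over 100000 bp away and 2 were within 10000 bp. The widest (chr4:63657717-63706726, 49.0 kb) was 433.4 kb away. The regions at chr10:99478412-99505655 (27.2 kb), chr15:42897527-42926297 (28.8 kb) and chr10:76056801-76082417 (25.6 kb) were 437.6, 156.5 and 117.5 kb away.

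The other 6 lay closer to the population list. The region at chr5:34923073-34947953 (24.9 kb) lay 323 bp from a population region and 87 bp from a matched clone region. The region at chr6:134079062-134111406 (32.3 kb) lay 1877 bp from the population list and 253 bp from a matched clone region. At intermediate distances were chr15:64057736-64095953 (38.2 kb wide, 13.1 kb away), chrX:71303572-71330223 (26.7 and 27.4 kb), chr2:38443768-38467354 (23.6 and 28.0 kb) and chr5:37063111-37086830 (23.7 and 48.9 kb). For 9 of the 10 another clone region lay within 1000 bp, the exception being the region on the X chromosome, whose nearest clone neighbour was 3.76 kb away.

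The 10 members farthest from the population list were of ordinary width, from 1.32 to 9.28 kb, and came from 4 chromosomes. The first 2 stood alone. The region at chr6:15707884-15711547 (3.66 kb) was 1314 kb from a population region and 1876 kb from any other clone region. The region at chr2:65030466-65031781 (1.32 kb) was 1314 kb from a population region and 3432 kb from any other clone region.

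In contrast, 7 of the 10 were neighbours of one another on chromosome 14, between 117334901 and 117489944. They were 750.3 to 903.1 kb from the population list and 1.64 to 9.28 kb wide. The nearest matched clone region to these 7 was over 1 Mb away, at 1030 kb from the last of them. The tenth (chr8:33106754-33110611, 744.6 kb away) was the last of 8 consecutive members on chromosome 8 that began at 33007550 and lay in a population gap of 2108 kb.

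The share of clone regions without a counterpart differed between chromosomes. It was highest on chromosome 6 (24.0%, 20.8 to 27.4%, 165 of 688), followed by chromosome 17 (21.0%, 17.8 to 24.6%, 122 of 580), chromosome 5 (19.8%, 17.3 to 22.4%, 188 of 951) and chromosome 8 (18.4%, 15.8 to 21.4%, 142 of 770). The intervals of these 4 lay above the 15.3% over all 18 chromosomes. The intervals of 5 chromosomes lay below it. These were chromosome 12 (8.90%, 6.04 to 12.5%, 29 of 326), chromosome 16 (9.21%, 6.21 to 13.04%), chromosome 4 (9.43%, 7.56 to 11.6%), chromosome 9 (11.8%, 9.33 to 14.7%) and chromosome 7 (12.0%, 9.78 to 14.5%). The other 9 intervals included the share over all 18 chromosomes, and since regions cluster the true uncertainty is wider than these intervals. With a minimum width of 2000 bp in the clone list, 8 intervals left out the share over all chromosomes at that setting. With a population region within 5000 bp counted as a counterpart, 7 did. The interval of chromosome 16 included that share at both settings and the interval of chromosome 5 at the second.

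**Figure D4:**
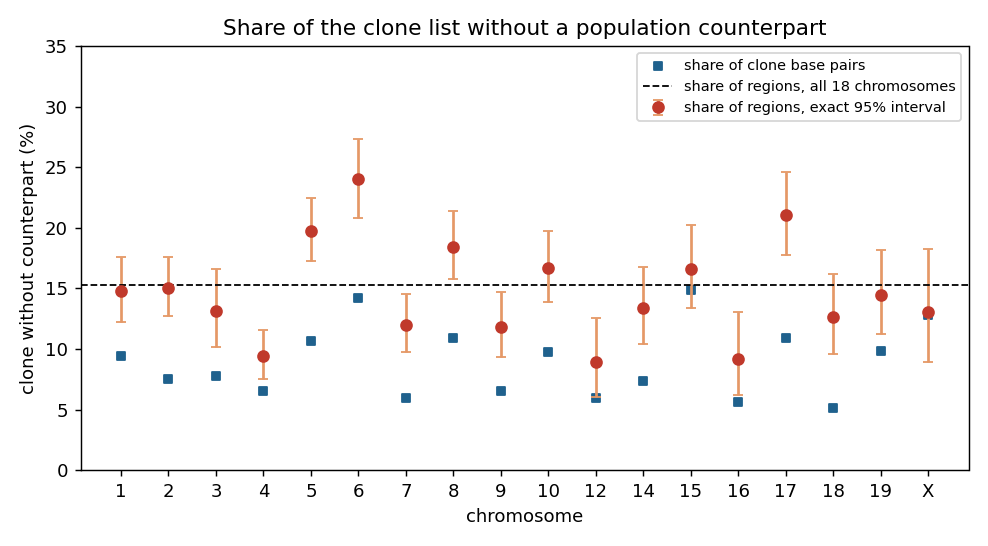
For each of 18 chromosomes, the share (%) of clone regions without a population counterpart (circles, bars are exact 95% intervals for counting error) and the share of clone base pairs in them (squares). The dashed line is the share of regions over all 18 chromosomes (15.3%), and chromosomes 6, 17, 5 and 8 have intervals above it.

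In base pairs the order changed. Chromosome 15 came first with 14.8% of its clone sequence in unmatched regions, followed by chromosome 6 with 14.2% and the X chromosome with 12.8%, against 9.15% overall. The value of chromosome 15 rested on the clusters described above: without its 2 clusters with the most covered sequence it was 9.40%. Without its widest unmatched region the X chromosome was at 10.7%. Chromosome 18 was lowest, at 5.13%. Chromosome 6 was thus the one chromosome among the first 2 by either measure.

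The clustered part of the members also varied by chromosome. On chromosome 15, 61 of 79 members (77.2%) were in clusters and on chromosome 16, 21 of 28 (75%), whereas on chromosome 17 46 of 122 (37.7%) were. Chromosome 6 had the most clusters, 22. Members over 100000 bp from the population list were 20.7% of those on the X chromosome (6 of 29), 19.05% on chromosome 14 (12 of 63), and 0 of 29 on chromosome 12. These shares rest on few regions on the sparsely marked chromosomes.

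The X chromosome, where H4K20me1 is known from the inactive copy in female cells, held 29 members. They were 1378 to 26652 bp wide, with a median of 2584 bp and a median distance to the population list of 15.6 kb. Of these, 12 lay within 10000 bp of a population region and 12 in clusters. The X chromosome share of 13.1% (8.93 to 18.2%) included the overall share. The number of members per Mb was the lowest of the 18 chromosomes at 0.18, against 1.32 on chromosome 17, the highest. This low density was not particular to members. The X chromosome also had the fewest clone regions (222) and the fewest population regions per Mb (5.62, against 14.6 on chromosome 17).

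Within chromosomes the members were concentrated in places. In segments of 20 Mb with at least 30 clone regions, the share had a median of 13.4%, and the interval lay above the overall share in 19 of 112 segments and below it in 16. On chromosome 6, 5 of 8 segments were above and none below. The largest of them in members was chr6:80000001-100000000, with 45 of 149 clone regions (30.2%, 22.96 to 38.3%). On chromosome 4, 4 of 6 segments were below and none above, although this chromosome held 2 of the 5 largest clusters.

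The segments with the highest shares were chr14:100000001-120000000 with 11 of 32 clone regions (34.4%, 18.6 to 53.2%) and chr17:60000001-80000000 with 29 of 87 (33.3%, 23.6 to 44.3%). At the other end, chr4:80000001-100000000 had 2 of 83 (2.41%, 0.29 to 8.43%). The first 20 Mb of chromosome 1 had 0 of 35, which allows a share of up to 8.57% when the limit for a count of 0 is set at 3 counts (the exact interval reaches 10.003%). On chrX:140000001-160000000 there were 0 of 31, which allows up to 9.68% by the same limit (exact interval to 11.2%). Along the length of the chromosomes, members were 16.1% of clone regions in the proximal part (14.8 to 17.4%), 16.1% in the middle part (14.8 to 17.4%) and 14.0% in the distal part (12.9996 to 15.1%), each part being 1 of 3 equal parts of the marked span. The 3 intervals overlapped.

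In bins of 1 Mb, members were found in 596 of the 1435 bins that held clone sequence. In 254 bins there was 1 member, and 96 bins with 5 or more held 692 members (43.1%, 40.6 to 45.5%). The corresponding share of all clone regions is not given here. The fullest bin, chr5:103000001-104000000, had 21 members with 60.3 kb, where all clone regions covered 81.4 kb and the population 21.7 kb. Its neighbour chr5:102000001-103000000 had 12 members, and these 2 bins held 2 of the 5 clusters with the most members. Second was chr10:58000001-59000000 with 16 members and 51.1 kb, where the population covered more than the clone (93.9 against 86.1 kb). A high count of members was therefore found both where the clone list exceeded the population list and where it did not.

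Bins in which the clone list had members and the population list had nothing numbered 9, with 31 members. The fullest were chr15:42000001-43000000 with 7 members and 91.7 kb, chr8:33000001-34000000 with 8 members and 34.1 kb, chr14:117000001-118000000 with 8 members and 25.1 kb, and chr17:62000001-63000000 with 3 members and 23.2 kb. Each of the other 5 bins had 1 member. In 40 bins all clone sequence was unmatched, and in 114 of the 596 bins with members the clone covered more than the population.

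These values depend on how a counterpart is defined and on narrow population regions. With population regions under 2000 bp left out, the share of clone regions without a counterpart was 23.9%, and with regions within 10000 bp joined in each list it was 9.67%.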

How the data were processed

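The 2 deposited files are lists of H4K20me1 regions with 3 columns (chromosome, start, end) and no header, and each was taken for the culture it is named for. Per the submitters' processing notes, CASAVA 1.8.1, Bowtie and mm9 were used, with no role stated. How peaks were called, with what settings and with which use of the serum libraries, and what the tag FDR5 means, is not given in the sources used here. Neither file deposited by the authors holds a score or count per region, and the number and width of called regions depend on depth, which is unknown. Starts were read as counted from 0 and are printed counted from 1.

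Overlaps, distances, runs, clusters and bins were computed with Python 3.11.15, numpy 2.4.6, scipy 1.17.1 and pandas 2.3.3. Shares have exact Clopper-Pearson 95% intervals. The functions for overlap, distance and joining were tested on simulated lists and differed from a per-base count in 0 of 200 pairs of lists. The members, thresholds and rules were chosen with earlier results of these data known. Regions named are the 10 widest, the 10 farthest and the 5 clusters with the most covered sequence; others were chosen after their values were seen. Alternatives varied the definition of a counterpart, joining, chromosomes, minimum width and clustering. Genes and sequences are not given: the gene table at hand describes GRCm38.p6, 65 clone regions on chromosome 7 lie beyond its last gene there, and no coordinates were converted.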

Additional observations from a re-analysis of the deposited data

How the results depend on the processing

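Of 66 recomputed values, 32 stayed within the 95% interval of the value reported (exact for shares, from order statistics for medians) or, for a count of chromosomes, within 1.5 times, and 34 did not. Beyond what a setting does by its construction, the cause was not tested. In the order share without counterpart, median width, median distance, share within 10000 bp, clustered share and share next to another member, the values reported were 15.3%, 2611 bp, 10310 bp, 49.3%, 51.7% and 67.4%. With a population region within 1000 bp counted as a counterpart, the share was 13.5%, the distance 13245 bp and the share within 10000 bp 42.8%. With 5000 bp they were 9.995%, 21756 bp and 22.6%, the width was 2765 bp, the share next to another member 72.9% and the share of chromosome 6 17.4%. Joining regions within 1000 bp gave, in the order above, 13.7%, 2833 bp, 12761 bp, 44.2%, 29.7% and 57.4%, and joining within 10000 bp gave 9.67%, 3244 bp, 23170 bp, 26.3%, 4.48% and 34.6%. A minimum width of 2000 bp in the clone list gave a share of 13.6%, a width of 3259 bp and a clustered share of 46.3%. The same minimum in the population list gave 23.9%, a distance of 13468 bp, 44.7% within 10000 bp and 71.6% next to another member. The clustered share was 36.9% with at most 10000 bp between members, 55.6% with 100000 bp, 69.3% from 2 members on and 30.6% from 5 on. In base pairs the shares of chromosomes 6 and 12 were 14.2% and 5.97%. Leaving out the X chromosome, adding chromosomes 11 and 13, or disregarding overlaps under 10% of the region kept every value tested there within its interval. No paired analysis was possible because there was a single library per group. The unknown depth limits every statement on a region listed for the clone alone.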

Other observations

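Chromosomes 11 and 13 were kept out of the set. By the same rule 167 of 990 clone regions on chromosome 11 (16.9%, 14.6 to 19.3%) and 24 of 284 on chromosome 13 (8.45%, 5.49 to 12.3%) had no population counterpart, so the first interval included the 15.3% of the other chromosomes and the second lay below it.

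Of the 6 runs of 10 or more consecutive unmatched regions, those on chromosomes 4 and 1 were the clusters described above. A run of 12 members on chromosome 18 (chr18:13901892-14071000) covered 31.3 kb, from 4.10 to 169.6 kb away, inside a population gap of 923.5 kb. A run of 11 on chromosome 6 (chr6:101122747-101171236) covered 40.7 kb of 48.5 kb and came within 707 bp of a population region. A run of 11 on chromosome 8 (chr8:83327020-83400058) covered 30.6 kb and came within 929 bp of one. A run of 10 on chromosome 5 (chr5:102930505-102996711) covered 39.5 kb inside a population gap of 95.2 kb and came within 4.96 kb of a population region. The limit of 10 was chosen after the values were seen.

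When clone regions within 1000 bp of each other were joined without changing the population list, 1325 of the 1607 members (82.5%) formed 1066 stretches free of population sequence, of which 94 were at least 10000 bp and 22 at least 20000 bp wide. The other 282 members (17.5%) joined onto a matched clone region. The widest stretches were 75.8 kb on chromosome 15 (5 regions), 60.1 kb on chromosome 4 (chr4:63646612-63706726, 2 regions) and 55.9 kb on chromosome 1 (chr1:64108953-64164889, 6 regions).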
